A study of Homo sapiens with 24 samples.

Results

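The 32 genes that encode the human Mediator complex were taken as 1 group, with MED6, MED8, MED11, MED17, MED18, MED20 and MED22 in the head, MED1, MED4, MED7, MED9, MED10, MED19, MED21, MED26 and MED31 in the middle, MED14 as the scaffold, MED15, MED16, MED23 to MED25 and MED27 to MED30 in the tail, and MED12, MED13, MED13L, CDK8, CDK19 and CCNC in the kinase module. Each sample has 1 value per splice junction, and the 4506 of 1823643 rows that lay on the strand and within the GRCh37 span of a member were used. The value is the percent spliced in (PSI), the percentage of reads at a splice site that belong to 1 junction among all reads sharing that site, those that run across the exon–intron boundary included. A row whose end lies 2 bases from its start is such a boundary, and its PSI measured intron retention (IR) at that site. Rows that join exons of the reference transcript across at least 1 of its exons measured exon skipping (ES).

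The cells were HCT-116, a human colorectal carcinoma line, and all of them carried an integrated lentiviral copy of PHF5A beside the endogenous gene, from lines made by selection with blasticidin. PHF5A is a subunit of SF3b, the part of U2 snRNP that binds the branch point of an intron. Cells that overexpressed wild-type PHF5A (WT cells) or its Y36C mutant (Y36C cells), 1 line of each, were treated for 6 h with the vehicle DMSO or with E7107, a pladienolide derivative that acts on SF3b, and poly(A) RNA of 6 samples in each of the 4 groups was sequenced. The study's methods name more than 1 dose of E7107, and its results describe the RNA sequencing with 1 of them. The labels give no dose for these samples, so the values are tied to none here. The labels also do not say that samples of a group came from separate cultures, so p-values measure the spread between these samples.

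Mediator carries signals from DNA-bound transcription factors to RNA polymerase II at promoters. Its head and middle contact the polymerase, its tail receives many activators, MED14 runs through the complex as a scaffold, and the separable kinase module controls whether the polymerase can bind. U2 snRNP has to recognise the branch point upstream of a 3′ splice site before the intron is removed, and retained introns and skipped exons can both change the protein a transcript encodes.

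Reads were found at 890 to 910 of the 1525 Mediator splice sites in the WT DMSO samples and at 796 to 814 after E7107. In Y36C cells the ranges were 863 to 915 and 873 to 892. The files hold no counts and the depth behind a PSI is unknown; the part of the lower site number of WT E7107 in the results was not tested. All annotated splice sites of the epithelial genes EPCAM, CDH1, KRT8, KRT18 and KRT19 had reads in each of the 24 samples, whereas the intestinal genes KRT20 and CDX2 had reads at 4 to 11 of 11 and 2 to 4 of 4 sites. Of markers of other cell types, CD68 had reads at 10 of 10 sites, COL1A1 at 85 to 90 of 90 and VWF at 0 to 1 of 1, in ranges over all groups, and PTPRC, CD3E, COL1A2, PDGFRB, VIL1 and CDX1 were not analysed here. The genotype of a sample cannot be checked from junction usage.

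Splice sites on which the results turn were read from the GRCh37 sequence, 5′ to 3′ on the strand of the gene. The first set holds 4 short introns in full, which were MED12 intron 25 and MED24 intron 25, with the highest mean in Y36C E7107, MED15 intron 15, retained with E7107 in both genotypes, and MED19 intron 2, retained in WT E7107. Capitals mark the first 2 and last 2 bases of the intron.
MED12 intron 25 (chrX:70349066-70349165, + strand): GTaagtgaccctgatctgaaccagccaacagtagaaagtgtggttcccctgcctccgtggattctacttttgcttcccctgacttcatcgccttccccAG
MED15 intron 15 (chr22:20939303-20939387, + strand): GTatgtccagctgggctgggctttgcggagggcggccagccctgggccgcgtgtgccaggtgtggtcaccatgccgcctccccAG
MED24 intron 25 (chr17:38175899-38176037, - strand): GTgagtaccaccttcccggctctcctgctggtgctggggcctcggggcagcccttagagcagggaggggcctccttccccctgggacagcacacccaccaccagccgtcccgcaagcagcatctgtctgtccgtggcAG
MED19 intron 2 (chr11:57472288-57472444, - strand): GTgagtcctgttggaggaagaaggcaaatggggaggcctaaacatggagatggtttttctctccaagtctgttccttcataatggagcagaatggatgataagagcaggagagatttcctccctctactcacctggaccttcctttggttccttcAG
The second set gives the last 50 bases of 4 introns with large IR in WT cells, followed by 3 bases of the next exon, because this stretch ends in the 3′ splice site that U2 snRNP serves; capitals mark the last 2 bases of the intron.
MED13L intron 11, 3′ end (chr12:116444214-116444266, - strand): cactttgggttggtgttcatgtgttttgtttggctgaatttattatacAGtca
MED17 intron 9, 3′ end (chr11:93540634-93540686, + strand): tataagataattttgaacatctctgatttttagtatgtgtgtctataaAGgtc
MED8 intron 2, 3′ end (chr1:43853316-43853368, - strand): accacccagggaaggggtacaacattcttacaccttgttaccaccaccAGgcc
MED13 intron 29, 3′ end (chr17:60023959-60024011, - strand): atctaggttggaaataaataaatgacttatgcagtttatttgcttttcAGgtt
The third set gives 4 exons that were skipped with E7107, in capitals, between 20 bases on each side. MED6 exon 7 and CDK8 exon 2 were skipped most in Y36C cells, MED13 exon 8 in both genotypes by its 5′ site and MED15 exon 13 in WT cells. At the 3′ site the WT rise of MED13 exon 8 did not pass the test.
MED6 exon 7 (chr14:71052453-71052520, - strand): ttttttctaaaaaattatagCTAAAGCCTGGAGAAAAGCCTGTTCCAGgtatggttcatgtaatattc
CDK8 exon 2 (chr13:26911684-26911799, + strand): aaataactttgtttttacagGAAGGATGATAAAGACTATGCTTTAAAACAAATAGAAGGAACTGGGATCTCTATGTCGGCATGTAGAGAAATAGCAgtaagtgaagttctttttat
MED13 exon 8 (chr17:60106882-60107032, - strand): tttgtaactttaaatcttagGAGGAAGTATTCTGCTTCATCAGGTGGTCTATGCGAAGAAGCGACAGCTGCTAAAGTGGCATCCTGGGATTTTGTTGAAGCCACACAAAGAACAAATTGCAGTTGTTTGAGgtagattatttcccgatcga
MED15 exon 13 (chr22:20937597-20937700, + strand): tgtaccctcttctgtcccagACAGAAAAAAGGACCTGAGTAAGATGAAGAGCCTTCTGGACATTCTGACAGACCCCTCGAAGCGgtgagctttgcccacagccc

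IR was first compared between WT cells treated with E7107 and with DMSO, to ask how the drug affects splicing of these genes. Mean boundary PSI of a gene was calculated over all its boundaries with reads in all 24 samples, whatever their PSI, and tested by limma on the natural-log odds for genes with at least 4 such boundaries. Of the 28 Mediator genes tested, 25 rose and 1, MED24, fell at an adjusted p of 0.05 or less, beside 72.5% and 7.67% of all 9895 genes. The median change was 23.3 percentage points over the Mediator genes and 6.60 over all genes. The mean also counts boundaries at splice sites inside exons, which belong to no reference intron and can be high without retention. Over reference introns alone, the WT means with DMSO and E7107 were 0.520 and 24.2% for MED1, 0.887 and 20.7% for MED4, 0.473 and 2.20% for MED14 and 4.83 and 4.04% for MED24, so that the levels of these genes given below are higher than those of their introns. Since whole cultures were measured, retention in all cells and stronger retention in some of them cannot be told apart, as fewer cells of a type and less RNA per cell cannot.

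**Figure D1:**
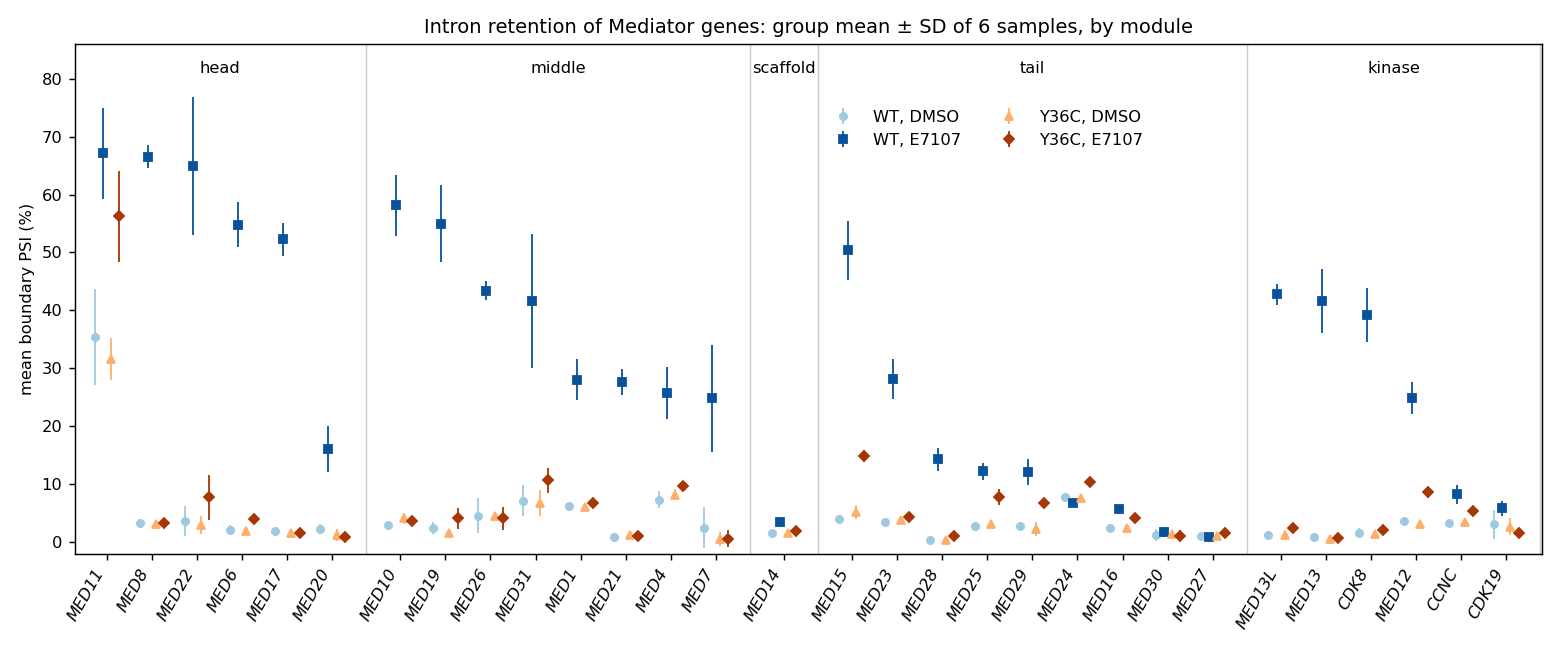
Mean boundary PSI (%, y axis) of the 30 Mediator genes with any boundary read in all samples (x axis), by module and by the WT E7107 level; points are means of 6 samples and bars are SD. WT E7107 (dark squares) lay far above the other 3 groups for most head, middle and kinase genes, MED11 was also high in the other groups, and MED24 was highest in Y36C E7107.

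In the head module all 5 genes tested rose, with a median change of 50.4 points. MED8, a head subunit, had the largest rise of all 28 genes, from 2.15, 3.53 and 4.11% (lowest, median and highest sample) with DMSO to 63.4, 66.8 and 68.4% with E7107 (log-odds change 3.79 ± 0.080 SE, adjusted p = 3.28e-13). The 6 E7107 samples lay within a few points of each other and far from the DMSO samples. MED6, one of the most conserved subunits, moved from 0.995, 2.12 and 3.47% to 50.01, 56.5 and 58.3% (3.66 ± 0.12, adjusted p = 1.43e-11). MED17, the architectural core of the head, moved from 1.54, 1.85 and 2.43% to 48.5, 52.3 and 56.0% (3.63 ± 0.072, adjusted p = 1.99e-13). In neither gene did an E7107 sample overlap with a DMSO sample. MED20 rose less, from a mean of 2.21 ± 0.849 (SD, n = 6) to 16.1 ± 3.97%. MED11 started from a far higher level, with 35.5 ± 8.29% in DMSO, and reached 67.1 ± 7.81%. MED22 had 2 boundaries only and was not tested; its mean PSI was 3.70 ± 2.59 and 64.9 ± 11.9%, without overlap, and MED18 had no boundary that met the requirement.

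The middle module, which lies between head and tail, had 7 of 7 genes higher, with a median change of 34.5 points. MED10 went from 1.98, 2.93 and 3.80% to 50.7, 59.0 and 65.4% (3.57 ± 0.11, adjusted p = 1.22e-11). MED19 went from 1.38, 2.15 and 4.17% to 43.7, 56.0 and 61.97% (3.60 ± 0.16, adjusted p = 3.03e-10). For both genes the treatments were far apart, although the E7107 samples themselves were widely spread. MED26, which brings elongation factors to Mediator, reached 43.4 ± 1.65% from 4.54 ± 3.04%, and MED31 41.6 ± 11.5% from 7.16 ± 2.65%. MED1, the contact of nuclear receptors, reached 28.0 ± 3.54% from 6.19 ± 0.207%. MED21 and MED4, further middle subunits, ended at 27.6 ± 2.24 and 25.7 ± 4.44%, from 0.823 ± 0.348 and 7.32 ± 1.48%. MED7, with 2 boundaries, had 2.49 ± 3.55 and 24.8 ± 9.22% and was not tested, and MED9 had no boundary to test.

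MED14, the scaffold, changed little although it has 30 introns. Its mean boundary PSI went from 1.35, 1.59 and 2.00% to 2.57, 3.45 and 4.17% (0.53 ± 0.072, adjusted p = 2.03e-05). The groups did not overlap, yet a change of 1.77 points was among the 4 smallest of the 28 genes, and with the median of its boundaries it no longer passed (limma, adjusted p = 0.402).

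The tail module, which receives activators, was mixed, with 6 of 9 genes higher, 1 lower and a median change of 9.28 points. MED15, a target of sterol-responsive factors, rose from 3.42, 3.86 and 4.82% to 43.8, 49.4 and 58.3% (2.98 ± 0.091, adjusted p = 8.33e-12). MED23, a target of MAP kinase-responsive factors, reached 28.2 ± 3.47% from 3.46 ± 0.626%. MED28, MED25, MED29 and MED16 also rose and ended at means of 14.3, 12.2, 12.1 and 5.68%. The rise of MED29 lay in 1 of its 3 introns, whose changes were 31.2, −0.960 and −2.38 points. MED24 went the other way, from 7.42, 7.80 and 8.37% to 5.73, 6.85 and 7.37% (−0.15 ± 0.046, adjusted p = 0.0105), and its highest E7107 sample lay just below the lowest DMSO sample. With the median of its boundaries the fall no longer passed (limma, adjusted p = 0.107). MED27 (1.06 ± 0.251 and 0.946 ± 0.448%, adjusted p = 0.531) and MED30 (1.19 ± 1.00 and 1.69 ± 0.823%, adjusted p = 0.324) did not pass the limma test, and their groups overlapped.

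In the kinase module all 6 genes rose, with a median change of 29.4 points. MED13L and MED13, paralogs that tie the kinase to the core, reached 42.8 ± 1.85 and 41.7 ± 5.54% from 1.17 ± 0.131 and 0.797 ± 0.182%. CDK8, the kinase itself, reached 39.2 ± 4.66% from 1.64 ± 0.782%. Its paralog CDK19 had 5.80 ± 1.31% against 3.06 ± 2.49%, with overlapping groups (limma, adjusted p = 0.0392). MED12, which activates the kinase, ended at 24.9 ± 2.72% and CCNC, the cyclin, at 8.26 ± 1.68%, from 3.70 ± 0.653 and 3.28 ± 0.405%.

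At single boundaries, 406 of the 466 Mediator rows tested in WT cells were higher and 14 lower with E7107, beside 70.8% and 5.78% of all boundaries. The ends of an intron share reads in part, and a row tested because it was above 0 only with E7107 had to rise, so these counts describe the rows tested. Without that requirement 471 of 691 rows were higher and 13 lower. The share of all boundaries is not given for that setting, so this count was not compared with it. Of 360 annotated introns of the 32 genes, 333 had reads at both ends in all 24 samples whatever their PSI, and their mean PSI rose by a median of 19.0 points. A rise of at least 10 points was seen at 211 of them and of at least 50 points at 56, in 11 genes. Introns of other genes were not counted in this way, so these intron counts and medians describe Mediator alone.

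When the intron with the largest rise was taken from each gene, those of MED13L, MED19, MED17, MED8, MED15 and MED13 stood first in WT cells. At the 5′ boundary of MED13L intron 11 (999 bases), PSI went from 2.56, 5.06 and 7.86% to 80.7, 89.2 and 95.7% (4.96 ± 0.26, adjusted p = 6.80e-09). In Y36C cells it went from 1.96, 3.69 and 5.96% to 5.21, 9.57 and 14.7% (0.77 ± 0.22, adjusted p = 0.0246). The WT groups were at opposite ends of the scale, whereas the highest Y36C DMSO sample overlapped with the lowest of Y36C E7107.

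Intron 2 of MED19 (157 bases), given in full above, reached a median of 83.2% at its 5′ boundary in WT E7107 (70.8 to 94.4%) against 0 to 8.89% with DMSO. Intron 9 of MED17 (5545 bases) reached 84.8% (75.6 to 92.1%) against 0 to 3.57%. Intron 2 of MED8 (662 bases) reached 74.0% (59.5 to 85.4%) against 0 to 2.50%. None of these WT groups overlapped, and the same boundaries had medians of 4.38, 1.48 and 0.459% in Y36C E7107, where they were not tested because each Y36C group held a sample at 0. MED8-AS1 overlaps MED8 intron 2 on the other strand and an unnamed gene overlaps MED17 intron 9 on the same strand. Whether the libraries kept the strand is not given in the sources used here, so reads of such partners could not be separated.

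Intron 29 of MED13, the last of the gene with 316 bases, had unequal ends. In WT E7107 the median was 81.7% at the 5′ boundary and 58.6% at the 3′ boundary, against 0 to 0.730% and 0 to 1.45% with DMSO. Over the 333 introns, the 3′ boundary was, in the median, higher than the 5′ boundary by 1.44 points in this group. Intron 14 of MED15 (429 bases) went from 2.91, 5.55 and 7.21% to 71.8, 73.5 and 80.0% at the 5′ boundary in WT cells (3.78 ± 0.16, adjusted p = 1.22e-09) and from 2.91, 8.29 and 11.9% to 15, 25.1 and 35.6% in Y36C cells (1.33 ± 0.25, adjusted p = 0.00254), without overlap of treatments in either genotype.

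**Figure D2:**
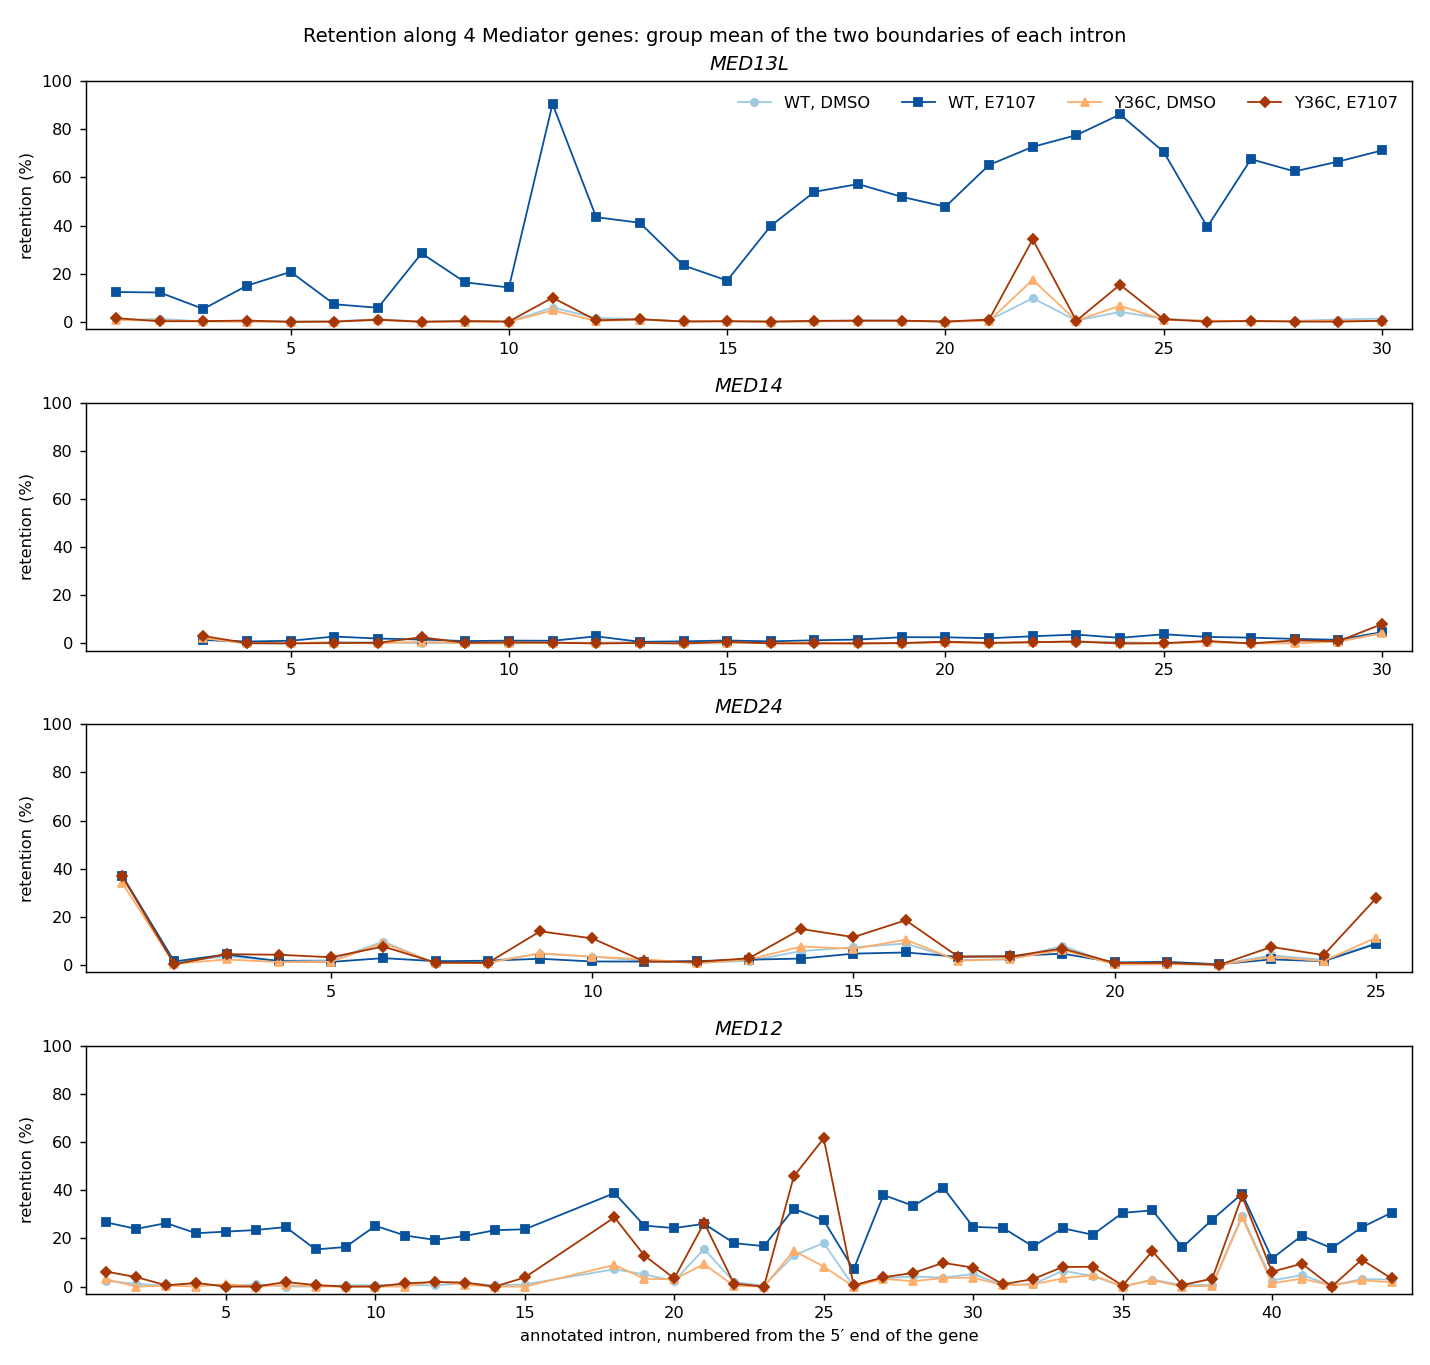
Retention (%, y axis), the group mean of both boundaries of an intron, against intron number from the 5′ end (x axis) in MED13L, MED14, MED24 and MED12; introns without reads at both ends in all samples are left out and the line runs across them. In WT E7107, MED13L introns 11 and 24 stood highest and MED14 stayed near 0, while in Y36C E7107 MED12 intron 25 reached 61.5% and MED24 intron 25 27.6%.

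IR was uneven along most genes. In WT cells the change with E7107 ran from 4.73 to 84.6 points over 30 introns of MED13L, with a median of 40.9, and from 7.11 to 37.3 points over 42 introns of MED12, with a median of 20.7. The introns of MED10 and MED6 changed alike, by 54.3 to 56.4 and 49.4 to 58.2 points. Changes in MED14 lay between −0.533 and 3.72 points over 28 introns, and in MED24 between −6.90 and 1.36 over 25.

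Some introns were retained without drug. A mean of at least 10% in WT DMSO was found at 15 of the 333 introns. The highest were MED11 intron 1 with 46.4%, MED24 intron 1 with 37.5% and MED12 intron 39, which begins with GC, with 29.5%. In the other groups, in the order WT E7107, Y36C DMSO and Y36C E7107, MED24 intron 1 had 37.1, 34.1 and 36.9%, so it lay within a few points in all 4.

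The same comparison in Y36C cells gave 17 of 28 Mediator genes higher and 0 lower by limma, beside 48.3% and 0.859% of all genes. At an unadjusted p under 0.05 there were 18 and 0, or 64.3% beside 54.6% of all genes. The median change was 0.680 points over the Mediator genes and 1.01 over all genes. With the median of a gene's boundaries in place of the mean, 9 genes were called. The share of all genes is not given for that setting. At single boundaries 78 of 220 Mediator rows were higher and 2 lower, beside 26.8% and 1.26% of all. By module, 2 of 5 head, 4 of 7 middle, 6 of 9 tail and 4 of 6 kinase genes rose, and MED14.

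Among the genes tested, MED11, MED15, MED12, MED25 and MED29 had the largest changes in Y36C cells, and in all 5 the treatments did not overlap. MED11 went from 24.6, 32.0 and 35.03% to 46.8, 57.2 and 65.1% (1.01 ± 0.14, adjusted p = 8.09e-05). MED15 went from 3.87, 5.21 and 7.33% to 13.3, 14.5 and 16.1% (1.05 ± 0.083, adjusted p = 1.01e-06). MED12 went from 2.23, 3.22 and 3.59% to 7.29, 8.88 and 9.68% (0.92 ± 0.072, adjusted p = 8.64e-07). Of the 42 MED12 introns with reads at both ends in all samples, 5 rose by at least 10 points and the median change was 1.57 points. With the median of its boundaries in place of the mean, MED12 no longer passed. MED25, a target of acidic activators, went from 2.66, 3.24 and 3.66% to 6.73, 7.36 and 10.4% (0.79 ± 0.078, adjusted p = 5.69e-06). MED29, the homolog of fly intersex, went from 0.503, 1.99 and 4.19% to 5.80, 6.85 and 7.32% (0.99 ± 0.17, adjusted p = 0.000424). Of the genes with large changes in WT cells, 3 had similar means with both treatments here, with 3.33 ± 0.820% against 3.05 ± 0.688% for MED8, 1.53 ± 0.225% against 1.59 ± 0.472% for MED17 and 3.61 ± 0.910% against 4.07 ± 0.894% for MED10 (adjusted p = 0.618, 0.899 and 0.480). MED6 and MED19 rose in Y36C cells as well, from 1.91 ± 0.326 to 4.05 ± 0.799% and from 1.62 ± 0.645 to 4.08 ± 1.78% (adjusted p = 0.000129 and 0.00865), and the treatments overlapped for MED19 but not for MED6.

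A rise of at least 10 points in Y36C cells was seen at 16 of the 333 introns, in 6 genes (MED11, MED12, MED13L, MED15, MED24 and MED25). No such count over all genes is given. MED12 intron 25, the 100-base intron printed above, rose most. Its 5′ boundary went from 7.14, 10.9 and 13.9% to 52.0, 57.6 and 72.2% in Y36C cells (2.45 ± 0.18, adjusted p = 5.19e-06). In WT cells it had 8.33, 23.8 and 32.3% with DMSO and 0, 23.0 and 61.1% with E7107 (adjusted p = 0.823). The Y36C groups were far apart, whereas the WT E7107 samples spread from 0 into the range of Y36C E7107. The intron before it, MED12 intron 24, went from a mean of 14.8 to 45.8% in Y36C cells and from 12.9 to 32.3% in WT cells.

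MED15 intron 15, 85 bases long and 71.8% GC, was retained in both genotypes. At its 5′ boundary PSI went from 3.48, 6.83 and 14.1% to 52.3, 64.5 and 72.5% in WT cells (3.05 ± 0.23, adjusted p = 1.42e-07) and from 7.35, 15.2 and 17.2% to 49.1, 56.2 and 58.3% in Y36C cells (2.08 ± 0.18, adjusted p = 1.24e-05). The difference of the effects was −0.97 ± 0.28 (adjusted p = 0.00651), while the E7107 samples of the 2 genotypes overlapped.

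MED11 intron 1 (201 bases, 67.2% GC) was retained in all groups. At the 5′ boundary the medians were 49.1 and 70.4% in WT and 53.9 and 78.1% in Y36C cells, DMSO first. It rose in both (adjusted p = 0.00231 and 0.00587), and the difference of the effects did not pass the test (0.54 ± 0.37, adjusted p = 0.246). An unnamed gene of the other strand overlaps this intron. MED25 intron 17 (440 bases), the last of the gene, went at its 3′ boundary from 3.51, 12.3 and 16.1% to 28.0, 35.05 and 50% in Y36C cells (1.66 ± 0.29, adjusted p = 0.00157). In WT cells the 3′ boundary had 2.50, 8.74 and 20% and 7.69, 18.1 and 28.0% (adjusted p = 0.136), and the difference missed the threshold (1.02 ± 0.46, adjusted p = 0.0725). Its 5′ boundary rose in both genotypes (adjusted p = 0.000115 and 0.00399).

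**Figure D3:**
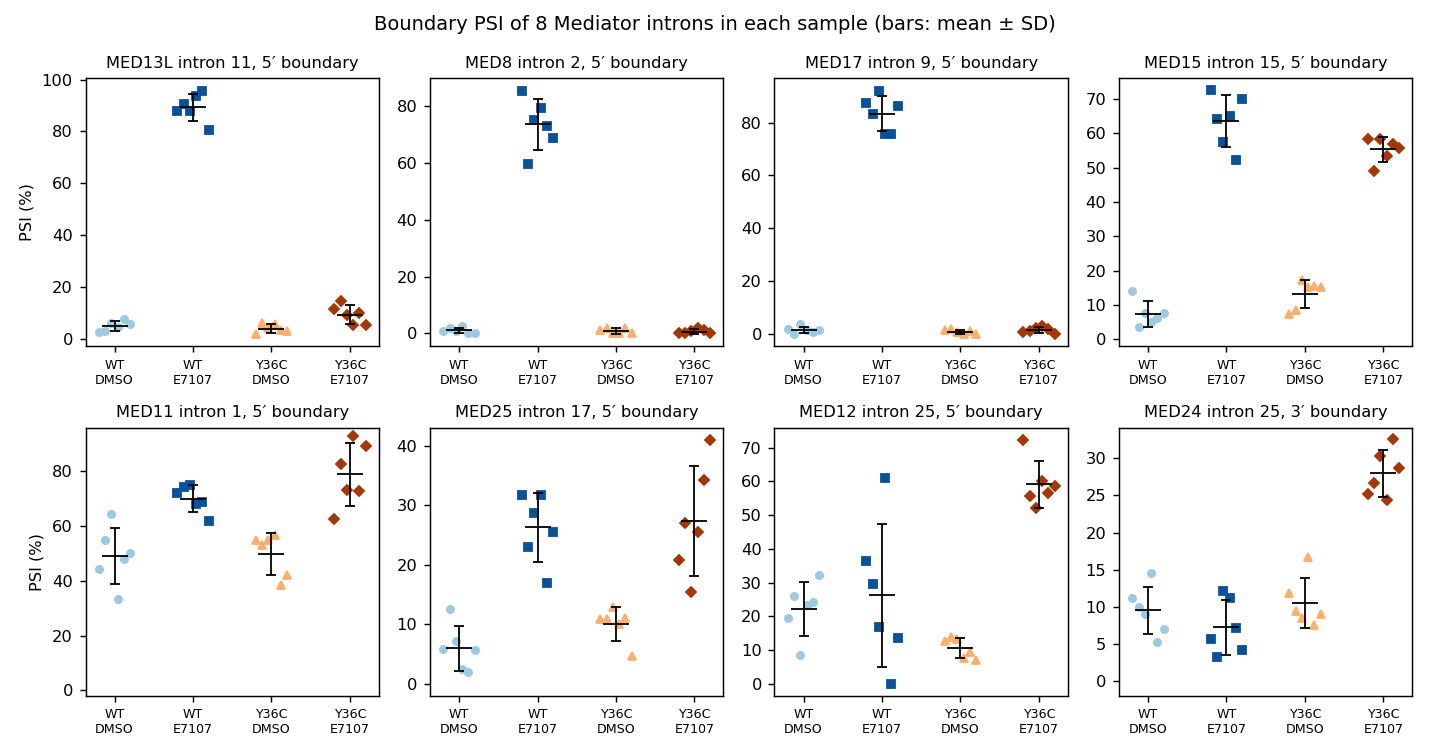
PSI (%, y axis) at 1 boundary of 8 Mediator introns in each of the 24 samples, by group (x axis); horizontal bars are means and error bars SD of 6 samples, and each panel has its own scale. MED13L intron 11, MED8 intron 2 and MED17 intron 9 were high in WT E7107, the plotted boundaries of MED15 intron 15, MED11 intron 1 and MED25 intron 17 rose in both genotypes, and MED12 intron 25 and MED24 intron 25 were highest in Y36C E7107.

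The genotypes were compared with DMSO alone to ask whether Y36C changes splicing of these genes without drug. By limma, 0 of 193 Mediator boundary rows were higher and 0 lower in Y36C cells, beside 0.0877% and 0.0778% of all boundaries. The counts were also 0 and 0 of 56 ES rows, beside 0.216% and 0.0360% of all, and 0 and 0 of 28 genes, beside 0.414% and 0.293%. At an unadjusted p under 0.05, limma gave 16 boundary rows higher and 16 lower, 2 and 3 ES rows, and 2 and 1 genes. These make 16.6, 8.93 and 10.7% of those tested, beside 11.5, 13.8 and 14.4% over all features. When all 24 samples shared 1 fit, 1 boundary of MED13L passed, 11.5 points higher in Y36C cells (0.82 ± 0.16, adjusted p = 0.0222).

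Under E7107, 366 of 477 Mediator boundary rows were lower and 34 higher in Y36C than in WT cells, beside 62.9% and 11.7% of all. Of the genes, 25 of 28 were lower and 1 higher, beside 65.0% and 15.4%, with a median difference of −18.8 points against −5.13 over all genes. The interaction of genotype and treatment tests whether the effect of E7107 differs. It was negative, a smaller effect in Y36C cells, for 23 genes and positive for 1, MED24, beside 60.8% and 13.6% of all genes. It did not pass for MED11 (−0.30 ± 0.24, adjusted p = 0.267), MED29 (−0.34 ± 0.21, adjusted p = 0.145), MED27 (adjusted p = 0.175) or MED30 (adjusted p = 0.213), and with medians of the boundaries that of MED29, whose WT rise lay in 1 intron, turned to 1.66 and that of MED14 no longer passed. At single boundaries it was negative for 343 of 484 rows and positive for 28, beside 54.9% and 8.94% of all. These comparisons share samples with those above, so their counts are not independent of them.

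MED24 fell in WT cells and rose in Y36C cells. Its mean boundary PSI in Y36C cells went from 6.72, 7.51 and 8.14% to 9.74, 10.1 and 11.5% (0.33 ± 0.043, adjusted p = 5.44e-05), and the interaction was 0.47 ± 0.059 (adjusted p = 1.73e-07). Of the 28 boundary rows with a positive interaction, 20 belonged to MED24, 3 to MED12, 2 to MED27 and 1 each to MED1, MED4 and MED29. At the 3′ boundary of MED24 intron 25, the last of the gene with 68.3% GC, PSI went from 7.48, 9.19 and 16.7% to 24.3, 27.7 and 32.6% in Y36C cells (1.17 ± 0.16, adjusted p = 0.000242) and from 5.30, 9.51 and 14.5% to 3.20, 6.35 and 12.1% in WT cells (adjusted p = 0.306). The Y36C E7107 samples stood apart from all others, and the effects differed by 1.48 ± 0.29 (adjusted p = 0.000150). MED24 holds the small nucleolar RNA gene SNORD124 on its own strand and overlaps THRA on the other.

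At MED12 intron 25 the interaction was 2.65 ± 0.73 at the 5′ boundary (adjusted p = 0.00418) and 2.41 ± 0.50 at the 3′ boundary (adjusted p = 0.000300). The remaining positive interactions described here lay at sites that are no ends of reference introns. At chr13:48669195, a 5′ splice site inside exon 1 of MED4, 66.1, 75.6 and 85.5% of reads ran on unspliced with DMSO in WT cells and 11.1, 50 and 70.0% with E7107 (−1.43 ± 0.41, adjusted p = 0.00922), with medians of 76.6 and 76.8% in Y36C cells. At chr17:37566833, a 5′ splice site inside exon 17 of MED1, the medians were 92.0 and 81.5% in WT and 91.5 and 92.5% in Y36C cells, and the effects differed by 0.89 ± 0.22 (adjusted p = 0.00197). A lower value there means more splicing from within the exon, so a positive interaction stands for a fall in WT cells, and in Y36C cells neither site passed the test (adjusted p = 0.953 and 0.705).

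ES was compared in the same groups. With E7107, 40 of 88 Mediator ES rows rose and 1 fell in Y36C cells, beside 52.0% and 1.12% of all ES rows. In WT cells 42 of 78 rose and 8 fell, beside 34.0% and 13.3%. The rows that rose stood for 21 junctions in 10 genes in Y36C cells and 23 junctions in 10 genes in WT cells. Of these, 4 junctions in 3 genes were called in both. No share over all junctions is given beside this overlap, and the rows tested differed between genotypes, so it is a description only. As for IR, a row above 0 only with E7107 had to rise. The junctions named below were picked by their rise in 1 genotype, so their interactions are a description. Under E7107, 41 of 104 ES rows were higher in Y36C than in WT cells and 39 lower, beside 44.5% and 19.1% of all. The interaction was positive for 34 of 114 and negative for 35, beside 35.5% and 16.2%.

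MED6 exon 7, a 28-base exon whose loss shifts the reading frame, had the largest rise in Y36C cells. The junction across it took 0.685, 1.01 and 2.29% of reads at its 5′ site with DMSO and 26.1, 32.9 and 39.2% with E7107 (3.16 ± 0.16, adjusted p = 6.03e-07). In WT cells it took 0.714, 1.52 and 4.13% and then 4.35, 9.28 and 15.3% (1.30 ± 0.27, adjusted p = 0.00101), and the effects differed by 1.86 ± 0.31 (adjusted p = 2.16e-05). Treatments did not overlap in either genotype. Because boundary reads count in PSI, and 52.8% of reads at this site were unspliced in WT E7107 against 6.94% in Y36C E7107, the share of the junction among spliced reads was also computed, a measure chosen after the data had been seen. It was 18.9% (10 to 29.0%) in WT and 35.6% (27.9 to 40.9%) in Y36C cells treated with E7107, with ranges that met. No test was run on such shares.

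MED31 exon 3 (97 bases) was skipped without drug already. The junction across it had 23.4, 30.9 and 32.7% at its 5′ site with DMSO and 54.3, 59.8 and 67.0% with E7107 in Y36C cells (1.23 ± 0.13, adjusted p = 6.62e-05). In WT cells it had 28.4, 33.9 and 36.05% and 6.67, 22.0 and 46.2% (adjusted p = 0.165), and at the 3′ site a fall passed the test (−0.70 ± 0.20, adjusted p = 0.00984). At the 3′ site 10.3% of reads were unspliced in WT DMSO and 39.3% in WT E7107. Among spliced reads the junction had 35.5% (31.5 to 41.1%) and 31.4% (20 to 42.9%) there, and 36.1% (31.5 to 39.2%) and 40.9% (25 to 66.7%) at the 5′ site, with overlapping ranges at both. In Y36C E7107 it had 67.7% (62.2 to 75.0%) of spliced reads at the 5′ site. By PSI the Y36C E7107 samples lay above all others, and the effects differed by 1.81 ± 0.36 (adjusted p = 0.000208).

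CDK8 exon 2 (76 bases) was skipped in 16.3, 19.8 and 33.3% of reads at the 5′ site in Y36C E7107, against 0, 6.13 and 9.26% in Y36C DMSO (1.90 ± 0.45, adjusted p = 0.00913). The junction was listed at 0 in all 6 WT E7107 samples and at 0 to 5.00% in WT DMSO, and 19.4% of reads at this site were unspliced in WT E7107. Its 3′ site had no reads in replicate 2 of WT E7107. The effects differed by 2.76 ± 0.60 (adjusted p = 0.000484). This junction entered the tests only through Y36C E7107 and was picked by its rise there, so the p-values only describe it. At the 3′ site the rise in Y36C cells no longer passed with an offset of 0.1 points in the log odds (adjusted p = 0.0518).

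The other exons with the largest rise in Y36C cells, in MED13, MED25 and MED16, have lengths that are multiples of 3 and so keep the reading frame. MED25 exon 15 (72 bases) went from 0.909, 1.68 and 4.55% to 7.59, 11.4 and 17.4% in Y36C cells (1.58 ± 0.22, adjusted p = 0.000301), and had medians of 3.04 and 1.18% in WT cells (adjusted p = 0.0671). MED16 exon 9 (207 bases) went from 3.06, 6.23 and 10.98% to 9.38, 16.7 and 22.4% in Y36C cells (0.94 ± 0.23, adjusted p = 0.0101), and had medians of 7.21 and 4.55% in WT cells (adjusted p = 0.0926 at the 5′ site and 0.0335 at the 3′ site). Treatments were apart for MED25 in Y36C cells and overlapped for MED16, and the effects differed between genotypes in both (adjusted p = 1.94e-05 and 0.000855).

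MED13 exon 8 (111 bases) rose in both genotypes at the 5′ site, from 2.08, 4.27 and 5.61% to 11.9, 22.4 and 24.2% in Y36C cells (1.63 ± 0.18, adjusted p = 7.06e-05) and from 0.901, 3.49 and 6.60% to 11.5, 27.6 and 58.8% in WT cells (2.38 ± 0.42, adjusted p = 0.000289). The difference did not pass the test there (adjusted p = 0.194). At the 3′ site the WT means were 3.37 ± 1.65 and 7.14 ± 3.62% (adjusted p = 0.0634), those of Y36C cells 4.22 ± 1.36 and 19.2 ± 3.20%, and the effect was larger in Y36C cells (0.89 ± 0.32, adjusted p = 0.0245), so the comparison of genotypes depended on the site. Among spliced reads the junction had 40.6% (17.6 to 62.5%) in WT and 20.8% (12 to 24.5%) in Y36C E7107 at the 5′ site and 9.92% (4.65 to 15.9%) and 20.3% (13.8 to 24.0%) at the 3′ site. With an offset of 0.1 points the adjusted p at the 3′ site was 0.0886.

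In WT cells the largest ES rise joined exons 6 and 9 of MED13 across exons 7 and 8, which hold 274 bases. It went from 0, 0 and 0.826% to 48.4, 52.4 and 56.6% (4.51 ± 0.16, adjusted p = 3.62e-10), and in Y36C cells from 0, 0.385 and 1.43% to 1.72, 2.98 and 10.6% (1.17 ± 0.28, adjusted p = 0.00981). The effects differed by −3.34 ± 0.32 (adjusted p = 9.03e-09). Both junctions of MED13 end at exon 9. At that 3′ site the medians in WT E7107 were 44.3% for the jump across both exons and 6.65% for the jump across exon 8 alone, and in Y36C E7107 they were 3.77 and 19.7%, the reverse order.

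The remaining ES junctions of WT cells lay in MED13L, MED15 and MED23. The junction across exons 2 to 4 of MED13L (407 bases) was listed at 0 in all DMSO samples, at 16.7, 26.7 and 35.7% in WT E7107 and at 0, 0 and 3.23% in Y36C E7107. MED15 exon 13 (64 bases) was listed at 0 in all DMSO samples, at 12.8, 29.7 and 34.4% in WT E7107 and at 0, 1.04 and 3.70% in Y36C E7107. Among spliced reads the junction across MED15 exon 13 had 41.9% (18.5 to 64.7%) at the 5′ site in WT E7107, where 35.3% of reads were unspliced. MED23 exon 15 (143 bases) was listed at 0 in every sample but those of WT E7107, which had 11.1, 23.2 and 33.3%. WT E7107 stood above every other sample at these junctions, with an adjusted p of the interaction of 1.14e-09, 7.54e-07 and 4.87e-11. These rows entered the test only through WT E7107 and were picked by their rise there, so the p-values only describe them. All bases skipped by the junctions named here are coding in the reference transcripts.

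**Figure D4:**
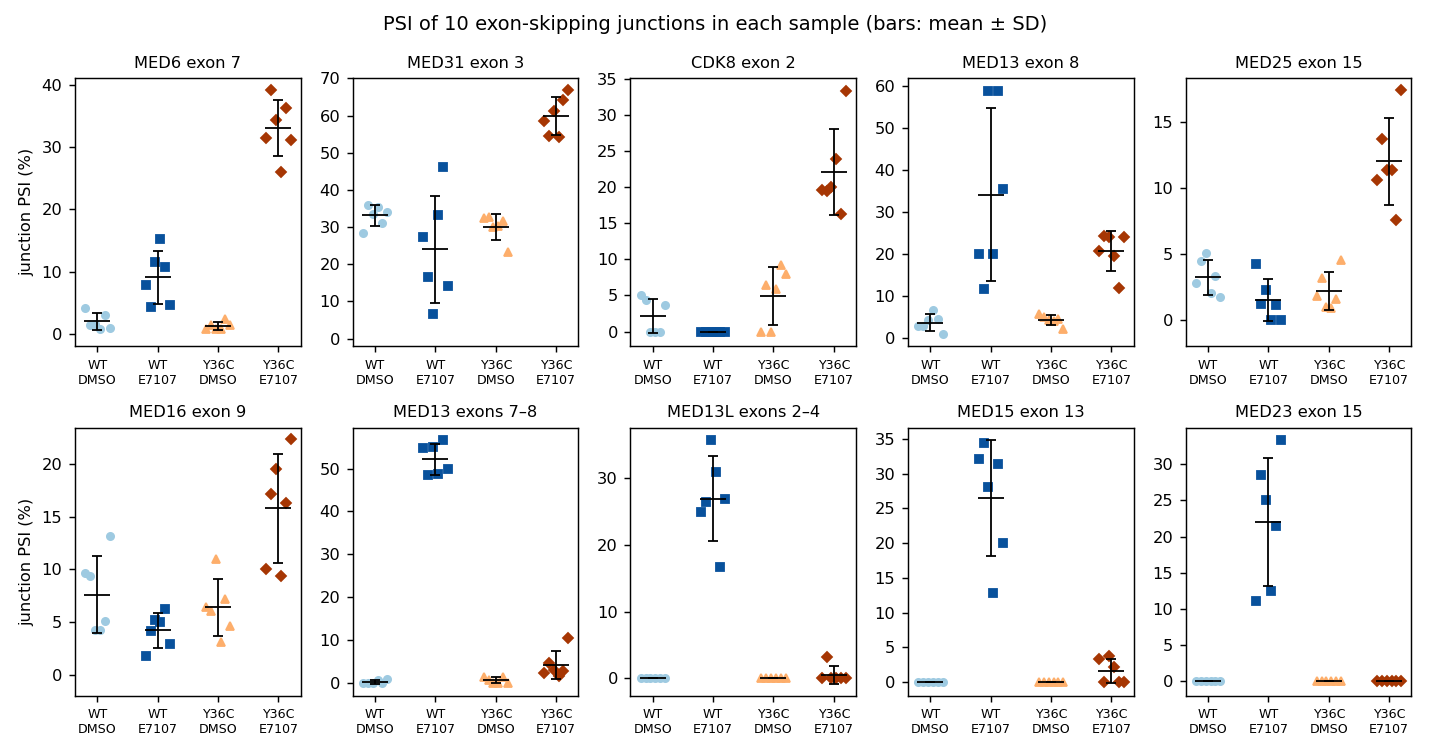
PSI (%, y axis) of 10 ES junctions in each of the 24 samples, by group (x axis), with means and SD of 6 samples; each panel has its own scale. The first 6 panels hold the largest rise per gene in Y36C cells and the last 4 those in WT cells; MED13 exon 8, plotted at its 5′ site, was also high in WT E7107, and MED23 exon 15 was listed at 0 outside WT E7107.

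The introns were also described by base composition, which the choice of genes did not use. In Y36C cells the median change was 0.163 points over 61 introns under 35% GC, 0.175 over 133 introns from 35 to 45%, 1.37 over 80 introns from 45 to 55% and 2.67 over 59 introns of 55% or more. Rises of at least 10 points numbered 1, 0, 8 and 7 in these classes. In WT cells the medians were 19.6, 25.2, 20.7 and 6.39 points, the last class coming from 8 genes, among them MED16, MED24 and MED25. Across the 333 introns, which share libraries and, within a gene, transcripts, Spearman's rho of change with GC content was 0.405 in Y36C and −0.181 in WT cells. With 1 point per gene (n = 30), the median GC content of its introns against their mean change, it was 0.366 and −0.0194. With the length of the intron rho was −0.181 in Y36C and 0.000837 in WT cells over introns. With the median length and mean change of each gene it was −0.650 and −0.188. The changes of the same intron in the 2 genotypes had a rho of 0.0333. These correlations describe the introns and were not tested.

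**Figure D5:**
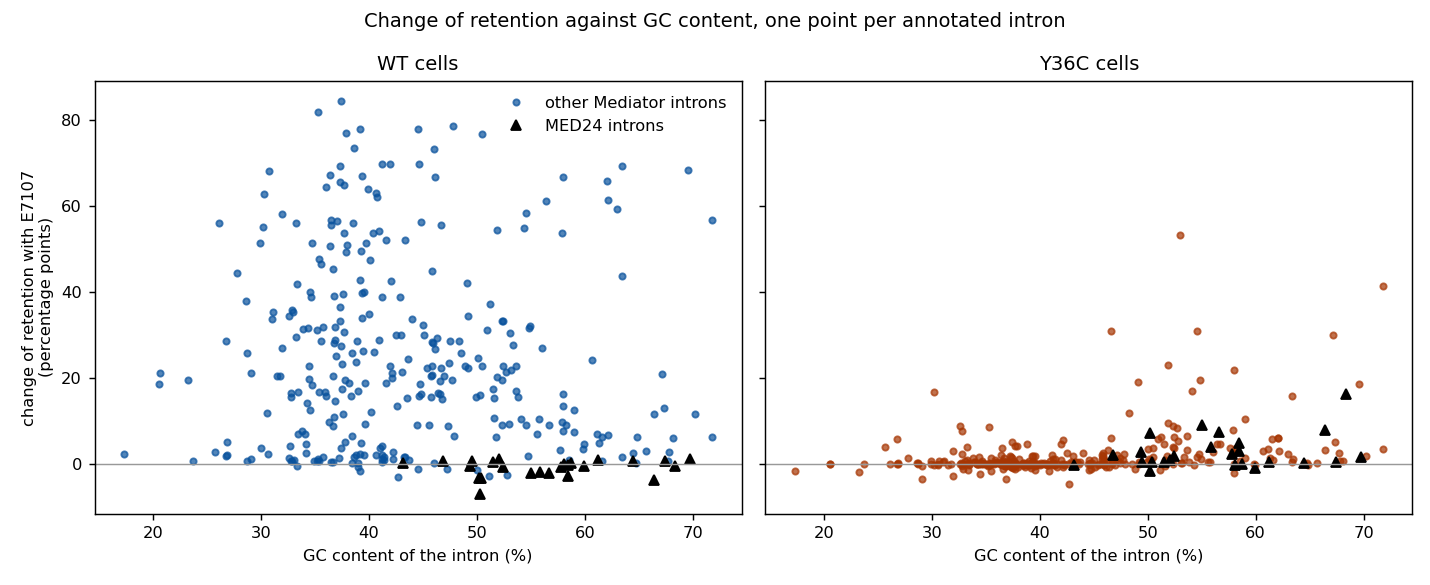
Change of retention with E7107 (percentage points, y axis) against GC content of the intron (%, x axis), 1 point for each of the 333 Mediator introns, in WT cells on the left and Y36C cells on the right. Introns of MED24 (black triangles) lie near 0 in WT cells, and in Y36C cells 8 and 7 of the 16 rises of at least 10 points lie at 45 to 55% and at 55% GC or more.

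RNA polymerase II and its general transcription factors, with which Mediator works, served as a neighbouring list of 43 genes. In WT cells 39 of 41 tested genes rose and 2 fell, beside 72.5% and 7.67% of all genes. The share that rose was 95.1%, beside 89.3% for Mediator. Their median change was 7.66 points, beside 23.3 for Mediator and 6.60 over all genes. In Y36C cells 22 rose and 1 fell, beside 48.3% and 0.859% of all genes. The median there was 0.668 points, beside 0.680 for Mediator and 1.01 over all genes. Of the annotated Mediator introns 357 of 360 begin with GT and end with AG, MED12 introns 36 and 39 begin with GC, and MED23 intron 23 is of the AT–AC kind.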

How the data were processed

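Poly(A) RNA of 24 HCT-116 samples, 6 in each of 4 groups, was sequenced. Per the labels and the study's methods, the authors aligned reads to hg19 (GRCh37) with STAR, whose version is not given in the sources used here. They deposited, for each sample, the percentage (PSI) that each junction or exon–intron boundary took of all reads at its splice site. Such percentages remove gene expression level, let IR lower the PSI of every junction at the site, and carry no depth. Whether counting used strand is not given in the sources used here.

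Of 1830076 rows per file, 6433 that lacked a strand or were mitochondrial were left out. Introns and exons were those of MANE Select transcripts in GENCODE release 44 mapped to GRCh37, and sequences were read from the GRCh37 genome. Log odds were natural logs of PSI against 100 minus PSI, with an offset of 1 percentage point added to both. Rows entered a test when their site had reads in all samples compared and no sample of at least 1 group had a PSI of 0. All rows that passed, or all 9895 genes, were fitted with limma 3.58.1 in R 4.3.3 (Python 3.11.15, numpy 2.4.6, pandas 2.3.3 and scipy 1.17.1 for the rest), with 12 samples in a comparison of 2 groups and 24 in the interaction. Every adjusted p in the text is from limma with Benjamini-Hochberg adjustment over all of them, two-sided, with a threshold of 0.05, and values after ± are SE for log odds and SD for PSI. The scripts were tested on simulated data.

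The genes named in full were the 6 with the largest and the 4 with the smallest change in WT cells and the 5 with the largest in Y36C cells. Among introns with both boundaries tested, the one with the largest mean rise was taken from each gene. The 6 largest in WT and 4 in Y36C cells were described. So were up to 4 boundaries with a larger effect in Y36C cells, 1 per gene. ES junctions, also 1 per gene, numbered up to 6 in Y36C and 4 in WT cells. Other introns were named after their values had been seen. Members, lists, offset and filter were chosen with earlier results of these data known. No comparison of the authors' own was used.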

Additional observations from a re-analysis of the deposited data

Results flagged for a closer look

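In 8 of the 180 groups of 6 samples checked, the highest or lowest sample stood apart from the others by Dixon's criterion, which chance flags in about 1 in 20 groups. Replicate 6 of Y36C DMSO was the lowest of its group in 3 of them, with a mean boundary PSI of 24.6% in MED11 (the others had 31.7 to 35.03%), 4.60% at the 5′ boundary of MED25 intron 17 (others 10 to 12.9%) and 23.4% at the 5′ site of the junction across MED31 exon 3 (others 30.0 to 32.7%). Replicate 4 of Y36C DMSO had 1.28% in MED6 (others 1.86 to 2.17%), and replicate 4 of Y36C E7107 had 1.96% in MED17 (others 1.32 to 1.53%). Replicate 3 of WT DMSO had 5.10% at the 3′ boundary of MED8 intron 2 (others 0 to 1.05%). Replicate 6 of Y36C E7107 had 10.6% at the junction across exons 7 and 8 of MED13 (others 1.72 to 4.67%), and replicate 2 had 3.23% at the junction across exons 2 to 4 of MED13L, where the others were listed at 0.

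The effect of E7107 differed between WT and Y36C cells, by the interaction in limma, for 38 of the named genes, boundaries and junctions, with 1 splice site taken for each junction. On the natural-log odds scale, as the Y36C effect minus the WT effect, mean boundary PSI gave −3.73 for MED8, −3.67 for MED10, −3.64 for MED17, −3.09 for MED6, −2.94 for MED19 and −1.93 for MED15. Smaller differences were seen for MED12 (−1.04), MED25 (−0.55) and MED14 (−0.38), and MED24 had the opposite sign (0.47). At the introns with the largest rise in WT cells, in the order 5′ and 3′ boundary, it was −5.81 and −3.63 for MED13 intron 29, −5.09 and −4.83 for MED8 intron 2, −5.09 and −4.58 for MED17 intron 9, −4.19 and −4.50 for MED19 intron 2, −4.19 and −4.16 for MED13L intron 11 and −2.45 and −2.53 for MED15 intron 14. MED15 intron 15 had −0.97 and −1.12. The WT introns were picked by their rise in the same WT samples, so their differences are a description too. The boundaries chosen for a larger effect in Y36C cells gave 2.65 at the 5′ and 2.41 at the 3′ boundary of MED12 intron 25, 1.48 at MED24 intron 25, 1.41 at the site inside MED4 exon 1 and 0.89 at the site inside MED1 exon 17. All but the 3′ boundary of MED12 were picked by this difference, so its size there is a description.

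Among the skipped exons, the difference was positive for CDK8 exon 2 (2.76), MED25 exon 15 (2.26), MED6 exon 7 (1.86), MED31 exon 3 (1.81) and MED16 exon 9 (1.45). It was negative for MED13L exons 2 to 4 (−3.37), MED13 exons 7 and 8 (−3.34), MED23 exon 15 (−3.32) and MED15 exon 13 (−2.87). The positive ones were picked by their rise in Y36C cells and the negative ones by their rise in WT cells. Their sign follows this choice in the same samples, so these differences are a description too. Since unspliced reads count in PSI, shares among spliced reads are given above for MED6, MED13 exon 8, MED15 and MED31. The part of IR at the same site in these differences was not tested.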

How the results depend on the processing

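The alternatives were other offsets in the log odds, PSI in percent as the response, other filters, a required change of 10 points, all 24 samples in 1 fit, annotated introns only, medians over a gene's boundaries and a replicate block. No shares over all features are given for them, so their counts are set beside the main counts only. In WT cells 22 to 26 genes and 349 to 484 boundary rows were called over these alternatives, beside 26 and 420. The required change of 10 points lowered called boundary rows in Y36C cells from 80 to 34, ES rows from 50 to 32 in WT and from 41 to 9 in Y36C cells, from 80 to 42 between the genotypes under E7107, and from 69 to 44 for the interaction. Without the requirement of a PSI above 0, 80 ES rows were called in WT cells, and when a group mean of 5% or more was required, 26 in Y36C cells. With all 24 samples in 1 fit, 1 boundary row was called between the genotypes with DMSO in place of 0. The median over boundaries lowered the genes called in Y36C cells from 17 to 9 and reversed the interaction of MED29 from −0.34 to 1.66 (adjusted p = 0.000959). The cause was not tested. Of 624 values for the 92 named results, 612 kept direction and side of the threshold, 10 no longer passed, 1 passed that had not, and 1 reversed.

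Samples share replicate numbers across groups. With the replicate block, 411 boundary rows, 50 ES rows and 25 genes were called in WT cells and 64, 37 and 15 in Y36C cells, and no named result changed its call. Deviations from the group means of same-numbered samples correlated between −0.00548 and 0.00586 in 36 pairs over 837099 rows, so that the numbers were not taken to pair samples. The files used here hold percentages only, so the depth behind low or absent PSI values limits what can be said of them, and a value listed at 0 does not show that a junction was unused.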
